A study of Mus musculus with 9 samples.

Results

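The genes described here are those of glycolysis and of the response to low oxygen: transporters of glucose and lactate, the enzymes from hexokinase to lactate dehydrogenase, kinases that set how much carbon passes through the pathway, the oxygen-sensing machinery and genes known as its targets. The list holds 37 genes, and 34 of them had an array probe set that names no other gene, out of 18194 genes measured in this way. Where a gene had several such probe sets, the brightest of them on average was taken. Gpi1, Eno1 and Bnip3l had no probe set of their own and were not used. RNA came from the tibial shafts of CD1 wild type mice aged 16 to 18 weeks, after marrow and periosteum were taken away and surface cells were digested off, which leaves bone enriched in osteocytes. One group was age-matched virgin mice, one was killed on day 12 of lactation with litters set to 8 to 13 pups, and one was killed 7 days after the pups were removed on lactation day 12 (post-lactation). Each group had 3 arrays, and the study looked for genes by which osteocytes remodel the matrix around themselves. No label says whether an array is 1 mouse or a pool, so p-values measure the spread between these arrays, which may be technical. The sample titles set the groups here, because another label field calls the post-lactation arrays virgin. The extraction protocol also mentions femurs once.

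Glycolysis splits glucose into pyruvate and yields ATP without oxygen, and lactate dehydrogenase then turns pyruvate into lactate, which leaves the cell through monocarboxylate transporters. When oxygen is plentiful, prolyl hydroxylases mark the alpha subunits of the hypoxia-inducible factors for destruction. When oxygen falls, these subunits persist, pair with Arnt and bind hypoxia response elements near genes for glucose uptake, glycolysis, vessel growth and mitochondrial turnover. Osteocytes lie enclosed in mineralised matrix, and hypoxia signalling in bone cells is known for its part in vessel growth and red cell production.

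All levels below are log2 expression values, so a difference of 1 is a doubling, and levels of different genes are not set against each other because probe sets differ in brightness. The 9 arrays fell into 3 sets, each with 1 array of every group, in which any pair of arrays had identical values for 2.503 to 44.1% of probe sets, against at most 0.00443% between sets. Array set 1 holds virgin 1, lactation 3 and post-lactation 1, set 2 holds virgin 2, lactation 2 and post-lactation 3, and set 3 holds virgin 3, lactation 1 and post-lactation 2. The labels name no such sets. Pairs within set 1 had identical values for 2.503 to 2.72% of probe sets, and pairs within sets 2 and 3 for 36.1 to 44.1%. Of the 34 members 9 had an exactly equal pair within a set, against 75% of all genes. They were Slc16a3, Aldoc, Pgk1, Eno2, Ldhb, Egln3, Vegfa, Car9 and P4ha2, so Slc16a1 and Pfkm were not among them. Equal values enter a fit with the array-set block as differences of exactly 0. limma shares its estimate of spread over all genes, so they can also alter blocked p-values of genes without ties, Slc16a1 and Pfkm included. How much they do was not tested. An equal pair of the groups compared also counts as no shared direction over the 3 array sets. The share of all genes with 1 direction, given below, is therefore not a like baseline for the members. Array medians differed by set as well (4.32 to 4.34, 4.80 to 4.82, and 4.57), so each comparison is given both without a block and with 1 for the array set. Gapdh has control probe sets at both ends of its transcript, and the one at the 3' end is the probe set used for Gapdh below. Their difference, 3' minus 5', is an index of RNA integrity and was larger in set 3 than in the others, which overlapped. It was 0.26 to 0.58 on the arrays of set 1, 0.20 to 0.30 on those of set 2 and 0.76 to 0.90 on those of set 3. The osteocyte genes Sost, Dmp1, Mepe, Phex and Pdpn were well above the dim level of 4.87 (the 40th percentile of gene means) in each group, while Fgf23 was below it in each. Virgin 1 stood apart: the mean of the 6 osteocyte genes was 3.91 above its array median, against 5.78 and 6.09 in virgin 2 and 3, 5.54 to 5.72 in lactation and 5.20 to 5.88 after weaning. The 8 neutrophil markers averaged 9.20 above the median in virgin 1, against 8.69 and 8.44 in virgin 2 and 3. This is not particular to virgin 1, because the array of set 1 was the highest in each other group too. It was 8.83 in lactation 3 and 8.90 in post-lactation 1, and set 1 had the lowest array medians. For some of the results against the virgin group that turn on this array, the difference without it is also given.

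Promoter windows are shown for 2 pairs of genes. Slc16a1 and Pfkm were the members called lower after weaning than in lactation with the array-set block. Bnip3 and P4ha2 were 2 of the 6 members over 1 log2 lower on virgin 1 than on the mean of virgin 2 and 3. Each window is the 250 bases before an annotated start, from RefSeq on build GRCm38.p6, and the capitals mark the core of the hypoxia response element, ACGTG or GCGTG, on either strand (CACGT or CACGC on the strand printed). Where CACGTG occurs, its matches on the 2 strands overlap and count as 2.
Slc16a1 (chr3:104638414-104638663, plus strand): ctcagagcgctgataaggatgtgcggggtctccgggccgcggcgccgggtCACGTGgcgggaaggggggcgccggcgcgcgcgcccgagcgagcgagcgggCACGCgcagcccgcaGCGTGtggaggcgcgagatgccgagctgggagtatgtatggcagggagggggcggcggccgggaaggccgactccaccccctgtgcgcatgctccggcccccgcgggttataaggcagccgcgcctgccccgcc
Pfkm (chr15:98092339-98092588, plus strand): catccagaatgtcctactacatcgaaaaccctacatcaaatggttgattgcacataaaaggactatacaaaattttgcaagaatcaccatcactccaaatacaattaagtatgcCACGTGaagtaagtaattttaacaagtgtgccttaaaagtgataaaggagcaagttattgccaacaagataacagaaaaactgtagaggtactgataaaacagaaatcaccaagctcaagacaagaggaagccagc
Bnip3 (chr7:138909507-138909756, minus strand): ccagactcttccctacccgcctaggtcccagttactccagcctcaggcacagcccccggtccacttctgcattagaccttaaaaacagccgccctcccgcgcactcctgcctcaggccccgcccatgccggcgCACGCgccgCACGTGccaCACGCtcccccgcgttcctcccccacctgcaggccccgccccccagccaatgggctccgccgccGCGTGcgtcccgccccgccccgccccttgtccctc
P4ha2 (chr11:54100674-54100923, plus strand): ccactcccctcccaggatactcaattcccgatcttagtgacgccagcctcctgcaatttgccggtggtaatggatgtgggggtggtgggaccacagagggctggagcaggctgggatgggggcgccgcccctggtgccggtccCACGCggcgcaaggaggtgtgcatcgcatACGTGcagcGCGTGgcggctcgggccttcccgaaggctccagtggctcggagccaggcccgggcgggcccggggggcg
Slc16a1 holds 4 matches, Pfkm 2 in the window of 1 of its several starts, Bnip3 5 and P4ha2 3. The 2 in Pfkm are the overlapping matches of 1 CACGTG. The other Pfkm windows lie downstream of the printed one, from chr15:98108221 onward, and hold 2, 1 and 0. Of the other members over 1 log2 lower on virgin 1, Adm and Egln1 held 2 each and Aldoc 1 in each window. Ndrg1 had no window. Bnip3 and P4ha2 thus held more matches than the others of their kind with a window. Among the 31 measured members with a window, 29 (93.5%) had a match in at least 1 window, against 41.5% of the 27025 genes in the table. Counted by window, 35 of 43 windows of measured members held a match, or 81.4%, against 38.6% of all 32851 windows. The members include genes listed because they are known targets of the factor, the base composition of the windows was not compared, and a match is a run of letters, not a bound site.

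Between lactation and the virgin state no member passed the test. limma called 0 of the 34 members and 0 of 18194 genes (0% called) without a block, with 0 members and 1.8% of all genes at an unadjusted p under 0.05. With the array-set block it called 0 members and 4 genes (0.022%), with 7 members and 8.01% of all genes at an unadjusted p under 0.05. The lactation mean was higher for 13 members, as for 52.5% of all genes, and lower for 21, as for 47.2%, with a median difference of -0.18 against 0.0074 over all genes. This median shifted with single arrays: it was -0.069 without virgin 1 and ran from -0.26 to -0.027 with 1 array left out. Within array sets 1, 2 and 3 it was 0.018, -0.14 and 0.016. Pfkm, higher in lactation, was the 1 member whose arrays did not overlap between these groups, against 2.75% of all genes in either direction and 2.06% higher. All 3 array sets gave the same direction for 9 members, against 16.5% of all genes, a share that equal pairs lowered.

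The block changed p-values and not differences between lactation and 7 days after weaning, and Slc16a1 and Pfkm were called lower when the array set was a block. limma then called 2 members, both lower, against 642 of 18194 genes (3.53%), 2.99% of all genes being called lower, and 9 members had an unadjusted p under 0.05, against 15.1% of all genes. Without a block it called 0 members and 129 genes (0.709%), with 3 members and 5.06% of all genes at an unadjusted p under 0.05. The mean was higher after weaning for 19 members, as for 50.1% of all genes, and lower for 15, as for 49.6%, and the median difference was 0.052 against 0 over all genes. Groups did not overlap for 5 members, higher for Slc2a3 and Hk2 and lower for Slc16a1, Pfkm and Bnip3, against 7.63% of all genes (3.26% higher and 4.38% lower). All 3 array sets gave the same direction for 16 members, 7 higher and 9 lower. The share was 28.9% over all genes, lowered by equal pairs. For 16 members there were 30 further probe sets above the dim level, and 15 of them had the direction of the probe set used and 15 the opposite one in this comparison. The same counts were 23 and 7 for lactation minus virgin, and 26 and 4 for post-lactation minus virgin.

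Between post-lactation and virgin arrays, Slc16a1 alone was called, with the array-set block. limma called 1 member, lower, against 82 genes (0.451%, with 0.423% called lower) with the block, and 0 members against 32 genes (0.176%) without it. At an unadjusted p under 0.05 there were 2 members without the block, against 2.09% of all genes, and 6 with it, against 8.11%. The mean was higher after weaning for 11 members, as for 50.9% of all genes, and lower for 23, as for 48.7%, with a median difference of -0.11, against 0.0017 over all genes, and of -0.060 without virgin 1. Slc16a1, lower, was also the 1 member without overlap between these groups, against 2.67% of all genes in either direction and 1.49% lower. All 3 array sets gave the same direction for 10 members, against 14.1% of all genes, a share that equal pairs lowered.

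**Figure D1:**
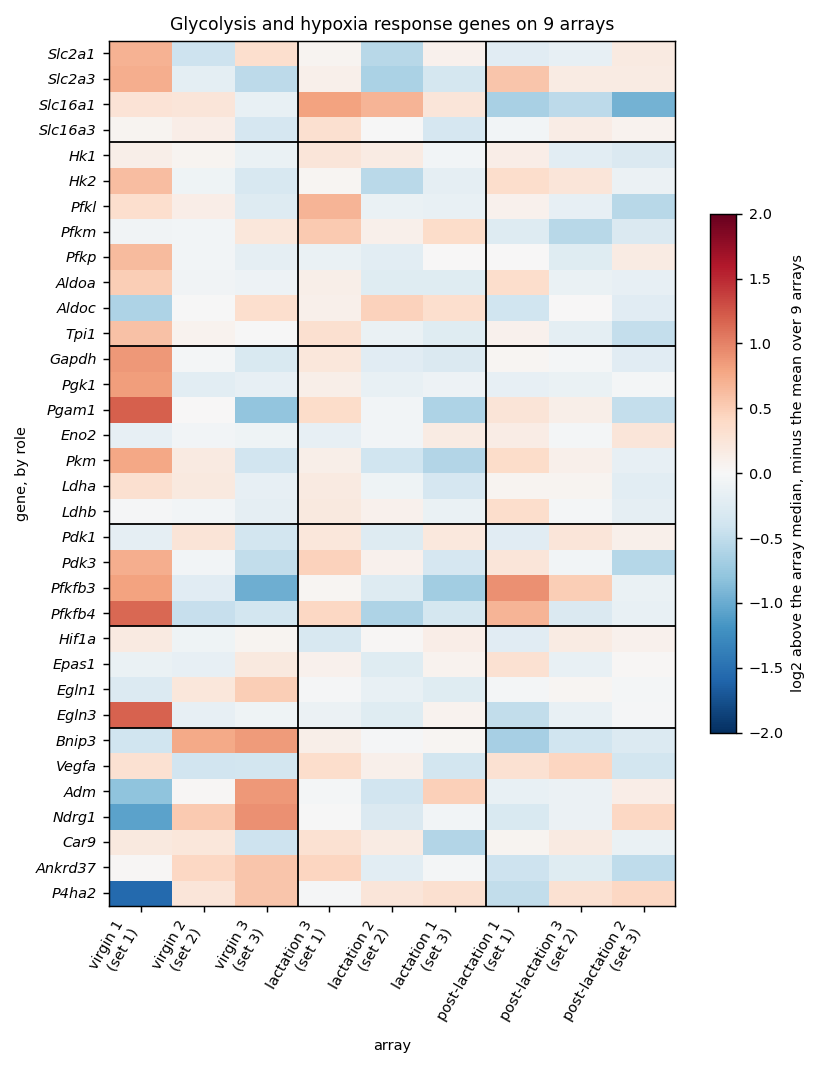
Heat map of the 34 measured genes (rows, in order of role, with lines between roles) on the 9 arrays (columns, by group and array set). Colour is the log2 level above the array's median, minus the gene's mean over the 9 arrays. Slc16a1 is blue on the 3 post-lactation arrays, and P4ha2, Ndrg1 and Adm are bluest on virgin 1.

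Among the transporters, the lactate carrier differed most and the glucose carriers did not pass the test. Slc16a1 encodes a monocarboxylate transporter that moves lactate and pyruvate across the cell membrane together with protons, and it is also abundant in red blood cells. Its levels on arrays 1, 2 and 3 of each group, the order used throughout, were 9.53, 9.998 and 9.36 in the virgin group, 9.75, 10.44 and 10.06 in lactation and 8.63, 8.57 and 9.22 after weaning. The 3 post-lactation arrays were the lowest of the 9, with no overlap with either other group. The group means were 9.63 ± 0.33, 10.09 ± 0.34 and 8.81 ± 0.36 (SD, n = 3 each). Slc16a1 was 2.42-fold lower after weaning than in lactation, a log2 difference of -1.28 (SE 0.27), with limma's adjusted p of 0.073 without the block and 0.00121 with it. Within array sets 1, 2 and 3 this difference was -1.43, -1.22 and -1.18, and the blocked call remained whichever array was left out, with adjusted p from 0.00389 to 0.0256. Against the virgin group the level was 1.77-fold lower, -0.82 (SE 0.27), with an adjusted p of 1 without the block and 0.0195 with it, and -0.90, -0.77 and -0.79 in sets 1, 2 and 3. This second call was lost whichever single array was left out, with adjusted p of 0.0676 to 0.138, and 0.0976 without virgin 1. Lactation minus virgin was 0.46 (SE 0.27, blocked adjusted p of 0.119), with 0.53, 0.44 and 0.39 in the 3 sets.

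Markers of red cell precursors moved with Slc16a1 between group means. The 10 measured erythroid markers of 12 listed averaged 3.12 to 4.19 above the array median in virgin arrays, 4.67 to 5.07 in lactation and -0.01 to 0.71 after weaning. The log2 of their summed level above the median ran from 7.26 to 8.22, from 8.85 to 9.13 and from 3.62 to 4.43 in the same order. limma called 9 of the 10 lower after weaning than in lactation without the block and 10 with it, and 9 and 8 lower than in virgin arrays. Within the post-lactation group, post-lactation 3 had the lowest erythroid mean, -0.01, and the highest Slc16a1 level, 9.22. Rhag, Epb42, Kel and Trim10 had post-lactation means below the dim level. Their part in the difference of Slc16a1 was not tested, and in bulk samples fewer cells of a type and less RNA per cell cannot be told apart. Of the 8 osteoclast markers limma called 5 lower after weaning than in lactation with the block and 0 without it, where 6 had an unadjusted p under 0.05. They averaged 2.43 to 2.58 above the array median in virgin arrays, 3.53 to 4.04 in lactation and 2.36 to 3.096 after weaning. The 7 measured B lymphocyte markers of 8 averaged 1.37 to 2.86, 2.10 to 2.80 and 3.15 to 3.87 in the same order. All 7 measured cell division markers of 8 had a lower mean after weaning than in lactation, with a median difference of -0.62, no overlap between the groups for 4, and 1 call without and 2 with the block. They averaged 4.38 to 5.27, 4.69 to 5.29 and 4.16 to 4.48 in the same order. The 8 neutrophil markers had a median difference of 0.31 after weaning, with 6 higher, 2 lower, no overlap for 4 (all higher), and 0 calls without the block (3 at an unadjusted p under 0.05) and 1 with it. They averaged 8.44 to 9.20, 8.22 to 8.83 and 8.66 to 8.90. The part of these 4 lists in the members' differences was not tested.

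**Figure D2:**
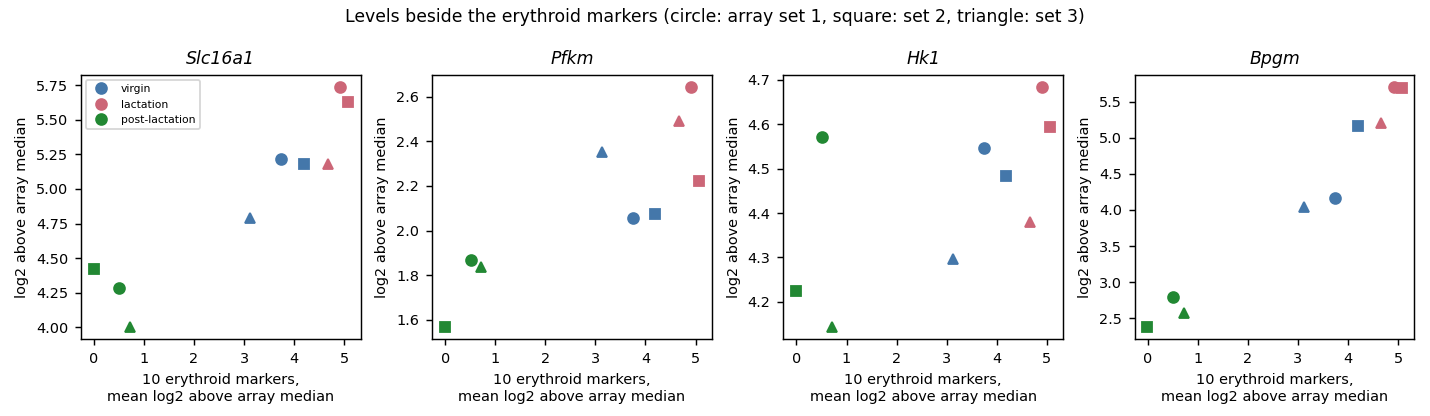
Level of 4 genes (vertical axis, log2 above the array median) against the mean of 10 erythroid markers (horizontal axis, log2 above the array median), 1 point per array, coloured by group and shaped by array set. The 3 post-lactation arrays lie at the left, with the erythroid mean between -0.01 and 0.71, and are lowest for Slc16a1, Pfkm and Bpgm, while Hk1 on post-lactation 1 lies among the other arrays.

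Slc2a1 and Slc2a3 encode facilitative glucose transporters, the first widely expressed and the second of high affinity. Slc2a3 read 11.14, 10.72 and 10.15 in the virgin group, 10.32, 10.28 and 10.53 in lactation and 10.996, 10.84 and 11.07 after weaning. Each post-lactation array lay above each lactation array, while the virgin arrays spanned both. The difference between post-lactation and lactation was 0.59 (SE 0.25), or 1.51-fold higher, with 0.47, 0.79 and 0.52 in array sets 1, 2 and 3, and limma's adjusted p was 0.869 without and 0.166 with the block. A second Slc2a3 probe set above the dim level gave 0.61 for the same comparison. Slc2a1 read 9.34, 8.74 and 9.25 in the virgin group, 8.996, 8.59 and 8.71 in lactation and 8.45, 9.08 and 8.97 after weaning, so the 3 groups overlapped. Its difference between post-lactation and lactation was 0.07, with a 95% interval of -0.48 to 0.62. Slc16a3, another lactate exporter, was dim, with group means of 4.75 to 4.86.

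In the first steps of the pathway, where ATP is spent to trap and split glucose, the muscle-type phosphofructokinase Pfkm was the member that passed a test. Pfkm supplies 1 of the 3 subunit types of the enzyme that commits sugar to glycolysis. It read 6.37, 6.89 and 6.92 in the virgin group, 7.06, 7.04 and 6.97 in lactation and 6.21, 6.41 and 6.37 after weaning. The lactation arrays were the highest 3 of the 9, and the post-lactation arrays lay below all of them. Post-lactation minus lactation was -0.69 (SE 0.21), 1.62-fold lower, with -0.75, -0.67 and -0.65 in array sets 1, 2 and 3. limma's adjusted p was 0.361 without the block and 0.0257 with it. The blocked call was kept without virgin 1 (adjusted p of 0.00695) and without virgin 3 (0.0408), and was lost without any 1 of the other arrays, with adjusted p up to 0.124. The erythroid markers given above moved with Pfkm too between group means, and their part was not tested. The 8 skeletal muscle markers, 5 of them below the dim level, averaged -0.47 to -0.41 against the array median in virgin arrays, -0.42 to -0.38 in lactation and -0.51 to -0.49 after weaning. The log2 of their summed level above the median ran from 2.83 to 2.92, from 2.94 to 3.07 and from 2.67 to 2.80. limma called 1 of the 8 lower after weaning than in lactation with the block and 0 without it. That gene was Mylpf, a myosin light chain, with means of 5.95 and 4.99 and a blocked adjusted p of 0.0118. The part of the muscle markers in the difference of Pfkm was not tested. Against the virgin group Pfkm differed by -0.40 after weaning (blocked adjusted p of 0.335), and by -0.58 without virgin 1.

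The other phosphofructokinase subunits did not pass. Pfkl, the liver type, had group means of 6.14, 6.21 and 5.86 in virgin, lactation and post-lactation arrays, and Pfkp, the platelet type, had 7.48, 7.24 and 7.33. Pfkl differed by -0.34 after weaning against lactation, lower in each array set (blocked adjusted p of 0.266). The other 2 Pfkl probe sets above the dim level gave 0.01 and 0.32 for the same comparison, so its direction depended on the probe set.

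Hexokinases add the phosphate that keeps glucose in the cell. Hk1 read 8.86, 9.30 and 8.87 in the virgin group, 8.95, 9.41 and 9.01 in lactation and 8.92, 8.71 and 9.03 after weaning. Its groups overlapped, with -0.24 between post-lactation and lactation (blocked adjusted p of 0.248). Hk2, the inducible form, read 8.22, 8.02 and 7.53 in the virgin group, 7.67, 7.55 and 7.64 in lactation and 7.97, 7.73 and 8.32 after weaning. Here each post-lactation array was above each lactation array, and the virgin arrays ran from 7.53 to 8.22. The difference was 0.39 (SE 0.24), 1.31-fold higher, with 0.33, 0.77 and 0.06 in the 3 array sets and a blocked adjusted p of 0.363.

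Aldolases split the sugar, and triosephosphate isomerase interconverts the products. Aldoa read 11.32, 11.25 and 10.97 in the virgin group, 10.84, 11.09 and 10.94 in lactation and 11.20, 10.91 and 11.18 after weaning. All 9 values lay within 0.48 of each other, and lactation was below virgin in each array set, with -0.22 over all arrays (blocked adjusted p of 0.449). Aldoc differed by -0.50 after weaning against lactation, lower in each set (blocked adjusted p of 0.196), and its virgin 1 value of 5.28 was the lowest of the 9. Tpi1 had means of 10.35 ± 0.19, 10.11 ± 0.19 and 9.94 ± 0.26 (SD, n = 3), and post-lactation minus virgin was -0.41 with a blocked adjusted p of 0.0995. Of the 8 measured genes from hexokinase to triosephosphate isomerase, the median difference between post-lactation and lactation was -0.21. In all 3 array sets 5 were lower and 2 (Aldoa and Hk2) higher. Over all genes 28.9% kept 1 direction, a share that equal pairs lowered.

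**Figure D3:**
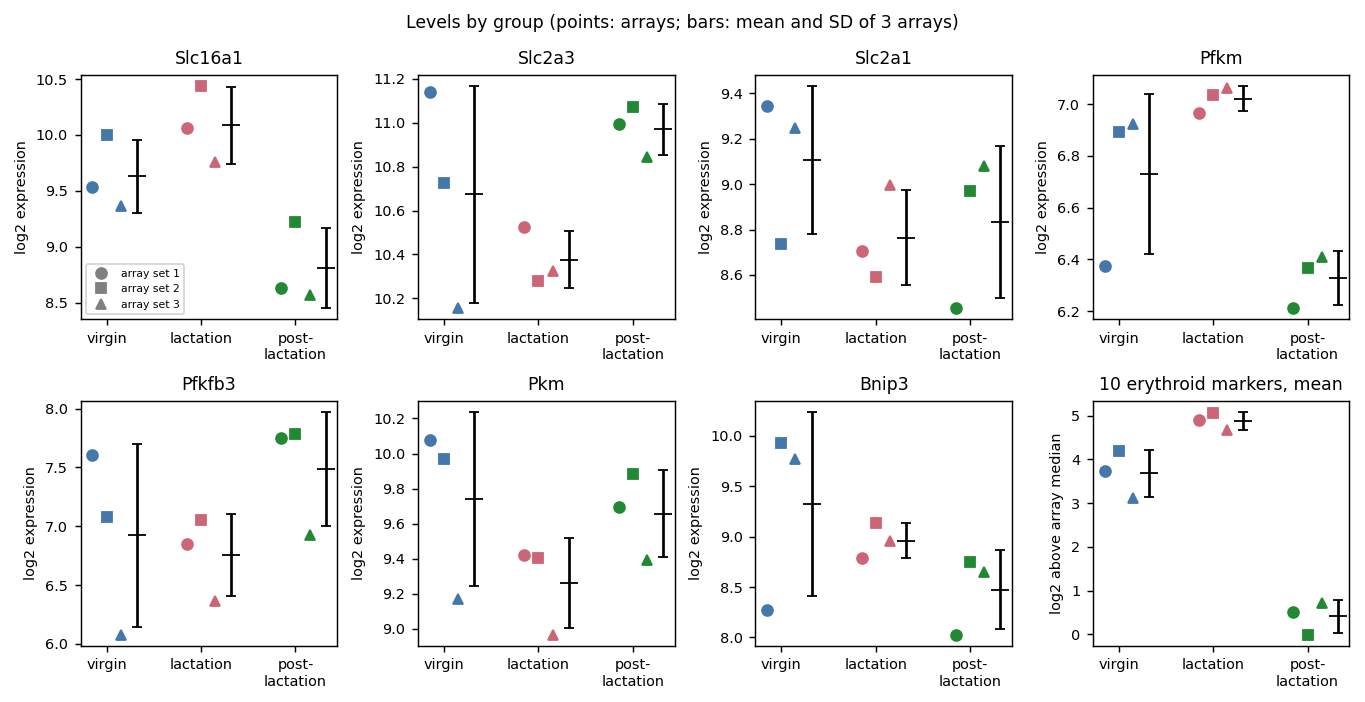
Log2 expression of 7 genes and the mean of 10 erythroid markers (log2 above the array median, last panel) in virgin, lactation and post-lactation arrays. Points are arrays, shaped by array set, and bars are the mean and SD of 3 arrays. Slc16a1 and Pfkm have no overlap between post-lactation and lactation and lie lower after weaning, and Slc2a3 lies higher without overlap.

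None of the 7 measured genes from glyceraldehyde phosphate dehydrogenase to lactate dehydrogenase passed a test in any comparison. limma with the block gave an unadjusted p under 0.05 for 2 of them (Ldha and Pkm) between lactation and virgin arrays and 1 (Pkm) between post-lactation and lactation, and for 0 without the block. Gapdh, which makes the first NADH of the pathway and is often used as a reference, read 12.77, 12.36 and 11.86 in the virgin group, 11.87, 12.17 and 12.14 in lactation and 11.97, 11.93 and 12.35 after weaning. Virgin 1 was the highest array and the groups overlapped. Post-lactation minus lactation was 0.02, with a 95% interval of -0.54 to 0.58, and lactation minus virgin was -0.27, or -0.05 without virgin 1. Pgk1, which makes the first ATP, read 11.19, 10.64 and 10.44 in the virgin group, 10.503, 10.70 and 10.48 in lactation and 10.22, 10.57 and 10.70 after weaning. It too was highest on virgin 1, and its difference between post-lactation and lactation was -0.06 (95% interval -0.59 to 0.46).

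Pkm encodes the muscle and widespread forms of pyruvate kinase, the last step to pyruvate. It was lower in lactation than in virgin arrays and higher after weaning than in lactation in each array set, but did not pass in either comparison. Its values, given here after they were seen, were 10.08, 9.97 and 9.17 in the virgin group, 8.97, 9.40 and 9.42 in lactation and 9.70, 9.39 and 9.88 after weaning. Lactation minus virgin was -0.48 (blocked adjusted p of 0.285), or -0.31 without virgin 1 (blocked adjusted p of 0.374), and post-lactation minus lactation was 0.39 (blocked adjusted p of 0.191). Pgam1, a phosphoglycerate mutase, ranged from 8.16 to 9.89, with virgin 1 highest, and Eno2, the neuronal enolase, was dim at 4.28 to 4.50 in group mean.

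Lactate dehydrogenase A favours the making of lactate and the B subunit is the heart type. Ldha read 10.45, 10.82 and 10.22 in the virgin group, 10.06, 10.54 and 10.32 in lactation and 10.21, 10.18 and 10.66 after weaning. The groups overlapped, and post-lactation minus lactation was 0.04 with a 95% interval of -0.48 to 0.57. Ldhb read 7.46, 7.94 and 7.56 in the virgin group, 7.60, 8.07 and 7.69 in lactation and 7.86, 7.56 and 7.94 after weaning. Each group had its highest value in array set 2, and the difference between post-lactation and lactation was -0.0035 (95% interval -0.50 to 0.49). Lactation minus virgin was 0.14 for Ldhb, while its other probe sets gave 0.29, 0.61 and 0.24. The 0.61 had limma's unadjusted p of 0.034 without the block, and did not pass over all probe sets (blocked adjusted p of 0.188).

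Among the kinases that set flux, Pfkfb3 differed most. Pfkfb3 makes fructose-2,6-bisphosphate, the strongest activator of phosphofructokinase, and is known as a hypoxia target. It read 7.60, 7.08 and 6.08 in the virgin group, 6.37, 7.05 and 6.85 in lactation and 7.75, 6.93 and 7.78 after weaning. Within each array set the post-lactation array was above the lactation array, by 0.90, 0.74 and 0.56 in sets 1, 2 and 3, although the groups overlapped. The difference was 0.73 (SE 0.38), 1.66-fold higher, with limma's adjusted p of 1 without the block and 0.1204 with it. Without virgin 1 the blocked adjusted p was 0.0235. Its other probe set was below the dim level and gave 0.09. Pfkfb4, the related enzyme, was also higher after weaning than in lactation in each set, with 0.27 over all arrays and a blocked adjusted p of 0.491.

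Pyruvate dehydrogenase kinases keep pyruvate out of the mitochondrial oxidation pathway. Pdk1 read 5.84, 6.78 and 5.91 in the virgin group, 6.49, 6.27 and 6.26 in lactation and 5.83, 6.38 and 6.76 after weaning, with overlap between the groups and a difference of -0.02 between post-lactation and lactation (95% interval -0.68 to 0.65). Its probe sets disagreed: the other 2 above the dim level gave -0.57 and -0.91 for this comparison, with limma's unadjusted p of 0.0237 and 0.0412, and neither passed over all probe sets (adjusted p of 0.915 and 1 without the block, 0.0832 and 0.390 with it). Pdk3 was lower after weaning than in lactation in each array set, with differences of -0.20, -0.16 and -0.24, and did not pass (blocked adjusted p of 0.442).

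**Figure D4:**
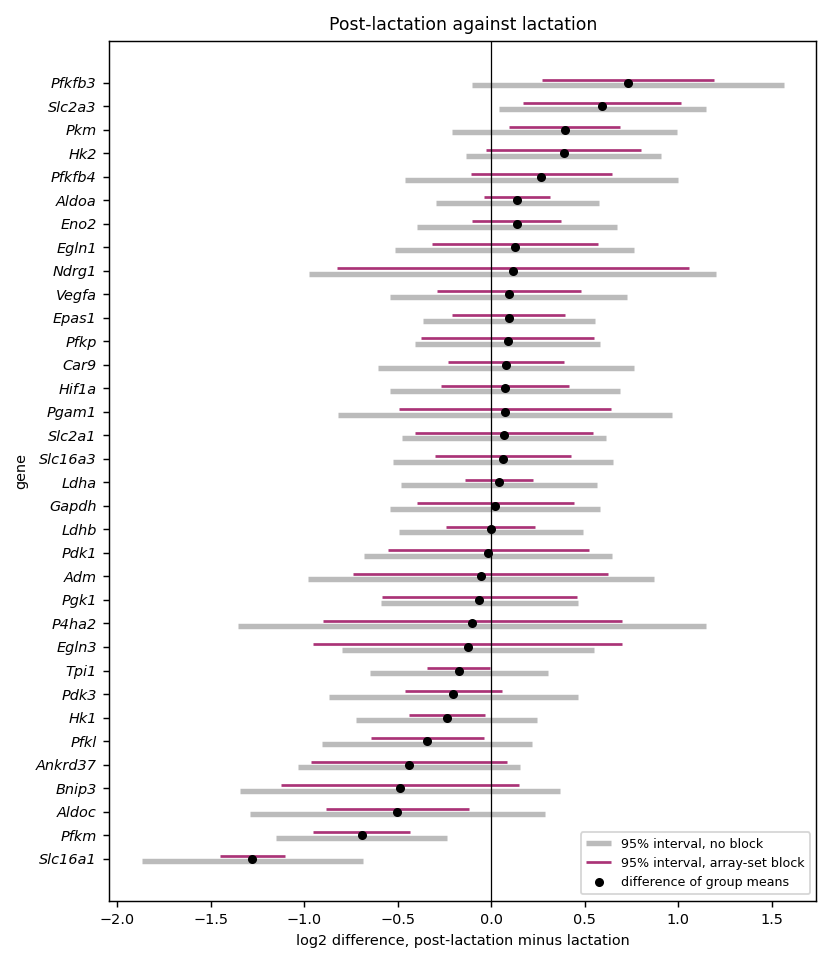
Log2 difference between post-lactation and lactation for each of the 34 genes (points), sorted by size, with 95% intervals from limma without a block (grey) and with the array-set block (purple). Slc16a1 at -1.28 and Pfkm at -0.69 lie farthest to the left, and Pfkfb3 at 0.73 and Slc2a3 at 0.59 farthest to the right.

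The 4 genes listed under oxygen sensing, which are alpha subunits and prolyl hydroxylases, showed no difference that passed a test in any comparison. For 0 of the 4 did limma give an unadjusted p under 0.05, with or without the block. Hif1a encodes the alpha subunit found in most cells, which is controlled mainly through protein stability, so its transcript does not report the factor's activity. It read 10.38, 10.61 and 10.51 in the virgin group, 10.58, 10.72 and 9.88 in lactation and 9.999, 10.54 and 10.85 after weaning. The groups overlapped, and the 95% interval of post-lactation minus lactation was -0.54 to 0.69 around 0.07. Epas1, the second alpha subunit, read 10.40, 10.88 and 10.98 in the virgin group, 10.86, 10.80 and 10.63 in lactation and 10.88, 10.81 and 10.88 after weaning. Its 3 post-lactation values lay between 10.81 and 10.88, and the 95% interval of the difference from lactation was -0.37 to 0.55.

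Egln1 is the main prolyl hydroxylase that marks the alpha subunits, and Egln3 is a form that the factor itself induces. Egln1 read 7.04, 8.04 and 8.05 in the virgin group, 7.32, 7.67 and 7.29 in lactation and 7.30, 7.52 and 7.84 after weaning. Virgin 1 was the lowest of the 9 arrays and virgin 2 and 3 were the highest. Lactation minus virgin was -0.29 with virgin 1 and -0.62 without it, where the blocked adjusted p was 0.214. Egln3 read 6.69, 5.84 and 5.68 in the virgin group, 5.83, 5.77 and 5.398 in lactation and 5.05, 5.73 and 5.84 after weaning. Virgin 1 was the highest array here and post-lactation 1, of the same array set, the lowest. The post-lactation minus virgin difference was -1.64 in set 1 against 0.00 and 0.05 in sets 2 and 3. The 0.00 came from an exactly equal pair of values. Over all arrays the difference was -0.53, or -0.22 without virgin 1.

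Of the 7 measured hypoxia targets, 5 (Bnip3, Adm, Ndrg1, Ankrd37 and P4ha2) had their largest SD in the virgin group. So did 26 of all 34 members (76.5%), against 41.6% of all genes. Ndrg1, a stress-response gene, and P4ha2, a collagen prolyl hydroxylase subunit, were picked after their values were seen. Ndrg1 read 8.96, 11.04 and 11.18 in the virgin group, 10.22, 10.22 and 10.02 in lactation and 9.75, 10.68 and 10.38 after weaning. Virgin 2 and 3 were its highest arrays and virgin 1 its lowest. P4ha2 read 5.001, 7.30 and 7.37 in the virgin group, 7.14, 7.30 and 6.54 in lactation and 6.10, 7.23 and 7.35 after weaning, and again virgin 1 was lowest. Lactation minus virgin was 0.44 for P4ha2 and -0.24 for Ndrg1. The direction for P4ha2 turned on virgin 1, because virgin 2 and 3 both lay above the lactation mean of 6.99. The virgin SD was 1.25 for Ndrg1 and 1.35 for P4ha2, against 0.12 and 0.40 in lactation and 0.48 and 0.69 after weaning. Virgin 1 differed from the mean of virgin 2 and 3 by -2.34 for P4ha2, -2.16 for Ndrg1, -1.63 for Adm and -1.58 for Bnip3, where the median over all genes was -0.29. Above the array median, these differences were -1.96, -1.78, -1.26 and -1.20. Counting all members, 6 were over 1 log2 lower on virgin 1, against 7.54% of all genes, and 3 (Pgam1, Pfkfb4 and Pfkfb3) over 1 log2 higher, against 1.69%. Measured above the array median the balance turned: 4 members (P4ha2, Ndrg1, Adm and Bnip3) were over 1 log2 lower, against 3.14% of all genes, and 7 (Pgam1, Pfkfb4, Pfkfb3, Egln3, Slc2a3, Gapdh and Pgk1) over 1 log2 higher, against 5.09%. The lower osteocyte markers of that array, and its neutrophil markers above the array median, were given above. Their part in these differences was not tested.

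Bnip3, which marks mitochondria for removal, read 8.27, 9.93 and 9.77 in the virgin group, 8.96, 9.14 and 8.79 in lactation and 8.03, 8.65 and 8.75 after weaning. Each post-lactation array was below each lactation array, and virgin 2 and 3 lay above all others. Post-lactation minus virgin was -0.85 (SE 0.39, 1.80-fold lower), with -0.24, -1.18 and -1.12 in array sets 1, 2 and 3 and limma's adjusted p of 1 without the block and 0.425 with it. Without virgin 1 the difference was -1.37, with a blocked adjusted p of 0.0976. Post-lactation minus lactation was -0.49, with a blocked adjusted p of 0.457.

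Adm encodes adrenomedullin, a peptide that widens vessels. It read 6.76, 8.09 and 8.70 in the virgin group, 8.30, 7.69 and 7.54 in lactation and 7.45, 7.97 and 7.95 after weaning, with virgin 1 lowest and virgin 3 highest. Its lactation minus virgin difference was -0.01 over all arrays, but 0.78, -0.40 and -0.40 in array sets 1, 2 and 3, and -0.55 without virgin 1. Vegfa, the vessel growth factor, read 8.46, 8.27 and 8.04 in the virgin group, 8.04, 8.75 and 8.50 in lactation and 8.47, 8.04 and 9.06 after weaning. Its values of 8.04, all of array set 3, were exactly equal. The Vegfa groups overlapped, and post-lactation minus lactation was 0.09 with a 95% interval of -0.54 to 0.73. Ankrd37, a gene known to respond to hypoxia, was lower after weaning than in virgin arrays in each set, with -0.71 overall (blocked adjusted p of 0.418) and -0.99 without virgin 1 (0.192), and its post-lactation mean of 4.53 was below the dim level. Car9, a surface carbonic anhydrase, had group means of 5.15 to 5.23.

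Over the 7 genes the size of the median difference from the virgin group depended on virgin 1. Their median lactation minus virgin difference was -0.04 with that array and -0.55 without it, and post-lactation minus virgin was -0.06 with and -0.61 without. Within array sets 1, 2 and 3 the lactation minus virgin median was 0.52, -0.40 and -0.40. limma called 0 of the 7 in any comparison, with or without the block, and also with virgin 1 left out. At an unadjusted p under 0.05 there were Ankrd37 without the block and Ankrd37 and Bnip3 with it, both between post-lactation and virgin arrays.

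**Figure D5:**
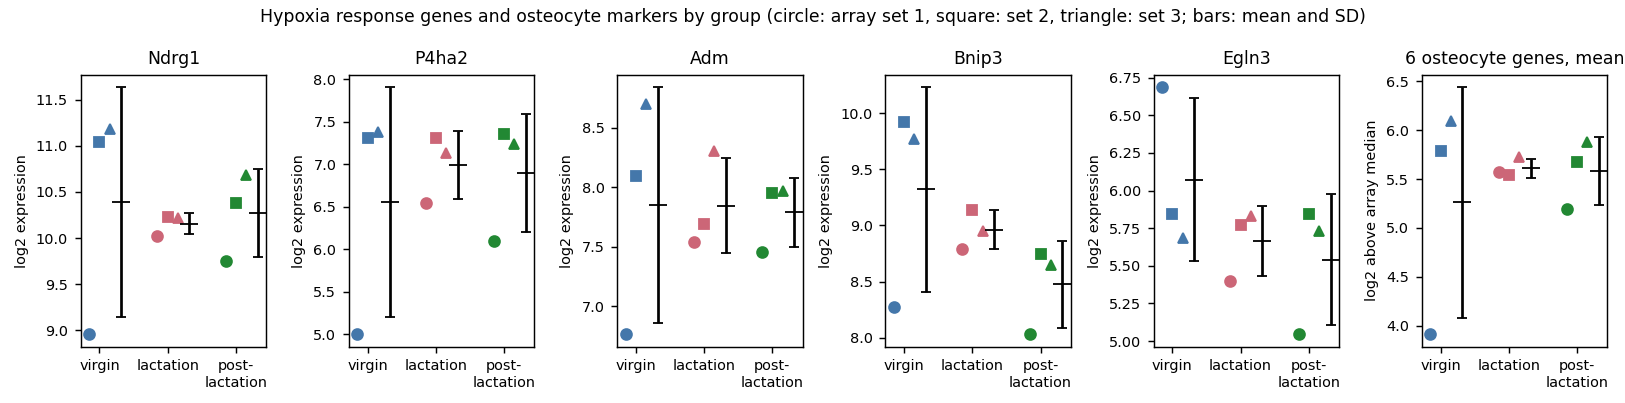
Log2 expression of 5 hypoxia response genes and the mean of 6 osteocyte genes (log2 above the array median, last panel) in virgin, lactation and post-lactation arrays. Points are arrays, shaped by array set, and bars are the mean and SD of 3 arrays. The circle of virgin 1 lies lowest for Ndrg1, P4ha2, Adm and the osteocyte genes, low for Bnip3 and highest for Egln3.

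Among further genes of glycolysis, outside the list of 37, Bpgm and Minpp1 fell after weaning. Of 18 listed, 15 were measured, and limma called 2 lower after weaning than in lactation, both with and without the block. Bpgm makes 2,3-bisphosphoglycerate, which loosens oxygen from haemoglobin in red cells, and Minpp1 encodes a phosphatase that can remove it. Bpgm averaged 9.03, 10.11 and 7.15 in virgin, lactation and post-lactation arrays, 7.73-fold lower after weaning than in lactation (adjusted p of 0.00205 without and 0.00411 with the block). Minpp1 averaged 8.46, 9.15 and 7.73, which was 2.67-fold lower (adjusted p of 0.0356 and 0.00281). With 1 array left out, the call of Bpgm with the block was lost without lactation 3 (adjusted p of 0.0694), and that of Minpp1 without a block was lost without lactation 2 or 3 or post-lactation 1 or 2 (0.166 to 0.209). The erythroid markers moved with both between group means, and their part was not tested. Over these 15 genes 5 had a higher and 10 a lower mean, as did 50.1% and 49.6% of all genes, with a median of -0.13.

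Further hypoxia targets outside the list gave 1 call without and 2 with the block among 27 measured of 29, all lower after weaning than in lactation. Tfrc, the transferrin receptor that brings iron into dividing and haemoglobin-making cells, averaged 10.06, 10.92 and 8.65, 4.82-fold lower (adjusted p of 0.00428 without and 0.00199 with the block). Mt1, a metallothionein that binds zinc, averaged 10.45, 11.17 and 10.33, a difference of -0.84 (adjusted p of 0.532 without and 0.0371 with the block). The blocked call of Mt1 was kept without virgin 1 or virgin 3 and lost without any 1 of the other arrays, with adjusted p of 0.0795 to 0.189. Erythroid markers moved with Tfrc between group means as well, and their part was not tested. The median over the 27 genes was -0.06, with 9 higher and 18 lower, as were 50.1% and 49.6% of all genes. No gene of these lists was called between lactation and virgin arrays, and Tfrc, at -1.41, was called between post-lactation and virgin arrays with the block only (adjusted p of 0.0337), a call kept without post-lactation 2 and lost without any 1 of the other arrays (0.0628 to 0.264).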

How the data were processed

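The authors deposited log2 expression values of 45101 probe sets on 9 arrays, summarised with RMA per the submitters' processing notes; steps beyond that are not stated in any source here. Of the probe sets, 34958 name 1 gene in the platform annotation, 932 name several and 9211 none. limma 3.58.1 in R 4.3.3 was fitted to 1 probe set per gene over all 18194 genes and 9 arrays, with group means and no block. Adjustment was by Benjamini-Hochberg, with a threshold of 0.05. A second fit had the array set as a block. Both were tested on simulated data with independent noise, 1 offset per array set shared by all genes, and no equal values. The simulation therefore does not show how equal values bear on the blocked fit. Array depth does not apply; 3 arrays per group limit the precision. Values on each array are given for members called in any comparison and for a chosen set of others; other genes came from lists by smallest unadjusted p. Members, lists and tests were chosen with earlier results of these data known. Promoter windows came from RefSeq tables.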

Additional observations from a re-analysis of the deposited data

How the results depend on the processing

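The count of members called was 0 in each comparison in the limma fit of all genes without a block, and stayed at 0 when any 1 array was left out of that fit. For post-lactation against lactation it was 2 with the array-set block (1 to 3 when 1 array was left out of that fit; the 3 are Slc16a1, Pfkfb3 and Pfkm, without virgin 1). Also without a block, it was 1, namely Slc16a1, with arrays centred on their median (adjusted p of 0.0155), after quantile normalization (0.00664), among genes above the dim level (0.043) and with an intensity trend and robust moderation (0.0496). For post-lactation against virgin it was 1 with the array-set block and 0 once any 1 array was left out. The replicate number as a block gave 0 members in all 3 comparisons, with 0, 118 and 33 genes called for lactation against virgin, post-lactation against lactation and post-lactation against virgin, where no block gave 0, 129 and 32. Replicate numbers were not taken to pair arrays: deviations from the group means correlated at 0.468 to 0.734 between arrays of 1 array set, and same-numbered arrays correlated above 0 only where they shared a set.

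The median lactation minus virgin difference was -0.075 without array set 1, -0.082 without set 3, 0.018 within set 1 and 0.016 within set 3. It ran from -0.26 to -0.027 with 1 array left out, and was -0.069 without virgin 1 and -0.041 without virgin 2. For post-lactation minus lactation it was -0.14 within set 1 and ran from -0.12 to 0.12. For post-lactation minus virgin it was 0.013 without set 1 and -0.013 within set 2, and ran from -0.195 to 0.016, the latter without virgin 2. Of 580 values of 20 named members per comparison, 580, 562 and 579 kept their direction or stayed uncalled, and the other 18 and 1 gained a call.

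The design has 3 arrays a group, and the array-set block leaves 4 residual degrees of freedom against 6. The array sets were found from equal values in the table, and what made them is not given in the sources used here. Present or absent calls were not used here, so differences of dim genes are less certain.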

Other observations

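The 8 measured genes of 9 listed for the pyruvate dehydrogenase complex and its pyruvate carriers, which pass pyruvate to the mitochondrial oxidation pathway, all had a lower mean after weaning than in lactation, with a median difference of -0.17 and 5 lower in each array set, and limma called 0 of them with or without the array-set block (unadjusted p under 0.05 for 2 with the block and 0 without). Dlat, the core subunit, had the largest difference, -0.39 (blocked adjusted p of 0.331).

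Of the 14 measured glycogen and pentose phosphate enzymes of 16 listed, limma called 0. Between post-lactation and lactation 2 had an unadjusted p under 0.05 without the block and 4 with it, against 5.06% and 15.1% of all genes. Pgd, which makes NADPH in the pentose phosphate pathway, differed by -0.69 between lactation and virgin arrays (-0.40 without virgin 1) and by 0.71 between post-lactation and lactation (adjusted p of 0.769 without the block and 0.174 with it for the latter). Pygl, which breaks down glycogen, differed by -0.68 and 0.86 in the same comparisons, and by -0.23 in the first of them without virgin 1. Among the 12 further oxygen-sensing genes limma also called 0, with 1 at an unadjusted p under 0.05 in that comparison without the block and 3 with it, and Hif3a, a relative of the alpha subunits, was lowest after weaning, with -0.61 against lactation (blocked adjusted p of 0.0672).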
